A study of Mus musculus with 7 samples.

Results

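7SK (gene Rn7sk), RMRP (Rmrp) and RPPH1 (Rpph1) are short, folded noncoding RNAs, followed here in RNA that an EZH2 antibody precipitated from mouse embryonic stem cells (RIP-seq). Their rows were those of the deposited count table that overlapped GENCODE M21 gene Rn7sk, Rmrp or Rpph1 on its own strand. That gave 3 of 303889 rows, 1 for each gene, or 3 of the 18900 genes with a row. EZH2 is the histone methyltransferase of Polycomb repressive complex 2. The series title states that this antibody, made against human EZH2, cross-reacts with SAFB, which binds RNA in the nucleus.

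The 7 libraries came from a male CAST/B6 line with a Rosa26-RMCE (recombinase cassette) allele, grown in DMEM with 15% serum and antibiotics at 37 °C and 5% CO2. The SAFB DKO group lacked Safb and its paralog Safb2 and held clones 13 and 4 (n = 2). The EZH2 KO group lacked Ezh2 and held clones 12 and 19 (n = 2). WT held the parental line and clones 20 and 44 (n = 3). Cells of all 3 groups had doxycycline for 3 days, and the labels do not say what it induced. A replicate was therefore a clone or the parental line, and a difference between groups can include differences between clones. Levels are of precipitated RNA, so how much of each RNA the cells held was not measured here, and fewer cells carrying an RNA cannot be told apart from less RNA per cell.

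7SK is the scaffold of a ribonucleoprotein that holds the elongation kinase P-TEFb (Cdk9 with cyclin T) inactive through the HEXIM proteins. Its 5′ end is capped by Mepce, and its 3′ end is bound by Larp7. RPPH1 is the catalytic RNA of RNase P, which trims the 5′ ends of precursor tRNAs. RMRP is the related RNA of RNase MRP, which acts in ribosomal RNA maturation, and both share most of their proteins. All of them are made by RNA polymerase III, are abundant in most cells, and do not code for protein.

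The row of each RNA covered only a stretch of it, and the sequences show which stretch gave the counts. They are from the GENCODE M21 transcripts (mm10, minus strand), written 5′ to 3′ with T for U, and capitals mark the counted row. For 7SK, bases 8 to 307 of 331 are shown, for RMRP all 281, and for RPPH1 bases 20 to 319 of 319.
Rn7sk: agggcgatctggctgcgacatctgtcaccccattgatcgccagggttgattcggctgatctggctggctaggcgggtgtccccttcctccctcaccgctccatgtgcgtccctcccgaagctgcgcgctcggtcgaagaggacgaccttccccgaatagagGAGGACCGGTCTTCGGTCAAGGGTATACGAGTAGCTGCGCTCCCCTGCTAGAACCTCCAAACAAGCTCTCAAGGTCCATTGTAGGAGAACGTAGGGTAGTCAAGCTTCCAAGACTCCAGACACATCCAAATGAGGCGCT
Rmrp: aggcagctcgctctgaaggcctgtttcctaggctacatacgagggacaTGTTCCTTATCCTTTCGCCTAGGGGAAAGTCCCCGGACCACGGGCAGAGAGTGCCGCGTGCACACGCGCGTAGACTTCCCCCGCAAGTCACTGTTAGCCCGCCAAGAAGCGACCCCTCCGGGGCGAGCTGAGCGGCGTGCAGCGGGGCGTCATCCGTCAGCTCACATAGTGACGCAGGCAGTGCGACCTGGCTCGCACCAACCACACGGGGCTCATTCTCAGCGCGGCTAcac
Rpph1: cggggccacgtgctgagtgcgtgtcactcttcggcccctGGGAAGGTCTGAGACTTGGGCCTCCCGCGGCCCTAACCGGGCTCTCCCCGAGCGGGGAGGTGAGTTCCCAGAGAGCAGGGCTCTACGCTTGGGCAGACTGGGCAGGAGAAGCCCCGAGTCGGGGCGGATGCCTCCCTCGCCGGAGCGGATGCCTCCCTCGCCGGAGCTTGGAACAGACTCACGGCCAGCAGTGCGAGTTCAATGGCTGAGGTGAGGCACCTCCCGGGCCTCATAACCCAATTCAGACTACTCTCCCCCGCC

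For 7SK (ENSMUSG00000065037.1, miscellaneous RNA, chr9:78175303-78175633), the row chr9:78175327-78175465 held 139 bases, positions 169 to 307 from the 5′ end. That is 42.0% of the RNA, in its 3′ part. The 5′ hairpin, which binds HEXIM through GATC repeats (GAUC in the RNA), lies outside it. A search for GATC, which reads the same on both strands, found 3 sites in 7SK, at positions 13, 42 and 64, and 0 in the row. Of 129282 annotated transcripts of at least 331 bases, 61.9% held GATC in their first 331 bases and 7.99% held 3 or more. The counted bases of 7SK therefore hold none of these sites and begin 3′ of all 3.

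For RMRP (chr4:43492783-43493063, annotated as a ribozyme, ENSMUSG00000088088.1, and as a lincRNA, ENSMUSG00000115420.1), the row chr4:43492786-43493015 held 230 bases, positions 49 to 278. For RPPH1 (ENSMUSG00000092837.1, ribozyme, chr14:50807449-50807767), the row chr14:50807447-50807709 held 263 bases, of which 261 lay in the gene, at positions 59 to 319. The row of RPPH1 also overlaps Ccnb1ip1, a protein-coding gene on the same strand (chr14:50789248-50807732). The rows of RMRP and RPPH1 covered 81.9% and 81.8% of their RNAs. GC content of the counted bases was 53.2% for 7SK, 65.2% for RMRP and 67.0% for RPPH1. None of the 3 rows was in the authors' filtered list of 33671 peaks.

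**Figure D1:**
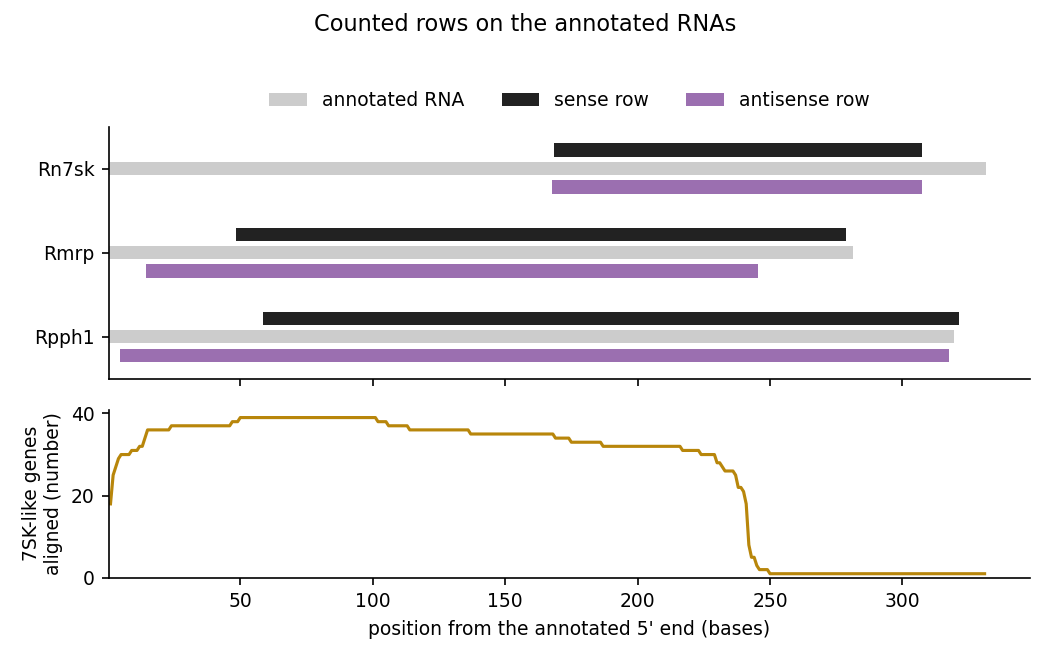
Rows counted on each RNA (top) and the number of annotated 7SK-like genes aligned to each base of 7SK (bottom), against the position from the annotated 5′ end in bases. The sense row of Rn7sk starts at position 169; all but 2 of the 39 copies end by position 245, inside that row, and 1 copy aligns over the last 24 bases.

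Copies could share reads with 7SK where their sequence is nearly the same. Alignment of 7SK to the other GENCODE M21 transcripts found 39 genes with at least 80% identity over at least 100 bases, all annotated as miscellaneous RNA. Of these, 37 ended by position 245 of 7SK, and Gm23037 (89.2% identity) was the only 1 to cover the whole row. Gm24447 was 100% identical to 7SK over positions 1 to 241. On average 36.4 copies aligned over positions 1 to 168, 16.8 over the row and 1 over positions 308 to 331. Only 6 of the 39 had a row of their own, with together 0.0758% to 0.0957% of the counts of Rn7sk in the knockout libraries and 0.0677% to 0.0713% in WT. The column names mark the alignments as filtered, but the sources used here give no rule for reads that match several copies. Where a copy is identical, its reads cannot be told apart from those of 7SK. Reads that match both may also have been dropped, which would lower the counts of 7SK.

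RMRP had 0 such copies. RPPH1 had 6, among them the ribozyme genes Rprl1, Rprl2 and Rprl3 at 83.7% to 86.0% identity, and a Ccnb1ip1 transcript that contains 233 bases of RPPH1. The 4 with a row held together 0.973% to 2.05% of the counts of Rpph1 in the knockout libraries and 0.952% to 1.29% in WT.

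Total counts were 18738499 and 15812517 in SAFB DKO, 7050832 and 8353603 in EZH2 KO, and 21832539, 21051227 and 19024702 in WT. Rows of the authors' filtered peak list held 393508 and 380070 of these in SAFB DKO, and 1813877 and 2423415 in EZH2 KO. In WT they held 3718971, 3562987 and 3094241. The part of this difference in the levels of RNAs outside the list was not tested. The targeted genes matched the labels: Safb averaged 1.00 CPM (counts normalised to the scaled library size) in SAFB DKO, 299 in EZH2 KO and 200 in WT, Safb2 averaged 1.86, 682 and 239 CPM in the same order, and Ezh2 averaged 157, 1.21 and 180 CPM. Embryonic stem cell markers (11 of 12 with a row, none at 0 counts; Sox2 had no row) summed to 3292 to 3413 CPM in SAFB DKO, 4160 to 4637 in EZH2 KO and 3571 to 3690 in WT. Tet1 carried that order: the other 10 summed to 1911 to 1939 CPM in SAFB DKO, 960 to 1076 in EZH2 KO and 1381 to 1422 in WT. Markers of primitive endoderm and trophoblast (9 of 12 with a row), of fibroblasts (6 of 10) and of neural and mesodermal cells (5 of 10) summed to at most 259 CPM a list in any library. Nes carried most of the neural and mesodermal sum. It averaged 65.6 CPM in SAFB DKO, 110 in EZH2 KO and 216 in WT, where the stem cell marker Pou5f1 averaged 198. Vim (34.2 CPM in WT) and Krt18 (33.8 CPM in WT) were the highest of the fibroblast list and of the endoderm and trophoblast list. Col3a1 and Cdx2 were at or near 0. The column names of the EZH2 KO libraries follow another pattern, and 1 of them carries the sequencing sample number of a WT library. No label states a separate run; if there was one, genotype and run cannot be told apart for EZH2 KO.

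7SK was among the most abundant RNAs of the precipitates and, of the 3, the one with the largest fold change in EZH2 KO. By value, 7SK had the smallest fold change of the 3 in SAFB DKO. Of the within-library ratios below, RMRP to 7SK overlapped between SAFB DKO and WT, and RPPH1 to 7SK did not (exact permutation p = 0.3 for each). Its normalised counts were 26377 and 26698 CPM in SAFB DKO, 1414 and 1572 CPM in EZH2 KO, and 19155, 15574 and 16955 CPM in WT. Both SAFB DKO libraries were above every WT library and both EZH2 KO libraries below. Means were 26538 ± 227 CPM in SAFB DKO, 1493 ± 112 CPM in EZH2 KO and 17228 ± 1806 CPM in WT (SD, n = 2, 2 and 3). By counts of single rows, 7SK was the second in both SAFB DKO libraries and the third in all 3 WT libraries of the 303889 rows. In EZH2 KO it ranked 15 and 14.

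RPPH1 had 3896 and 3754 CPM in SAFB DKO, 775 and 667 CPM in EZH2 KO, and 2486, 2027 and 1648 CPM in WT. The order of the groups was the same as for 7SK, with no overlap. Means were 3825 ± 100 CPM in SAFB DKO, 721 ± 75.8 CPM in EZH2 KO and 2054 ± 419 CPM in WT. Its row ranked 4 and 5 in SAFB DKO, 41 and 76 in EZH2 KO, and 6, 8 and 14 in WT.

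RMRP had 1674 and 1513 CPM in SAFB DKO, 264 and 260 CPM in EZH2 KO, and 1098, 804 and 807 CPM in WT. Again both SAFB DKO libraries were above WT and both EZH2 KO libraries below it. Means were 1594 ± 114 CPM in SAFB DKO, 262 ± 3.29 CPM in EZH2 KO and 903 ± 169 CPM in WT. Its row ranked 16 in both SAFB DKO libraries, 246 and 372 in EZH2 KO, and 25, 31 and 34 in WT.

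**Figure D2:**
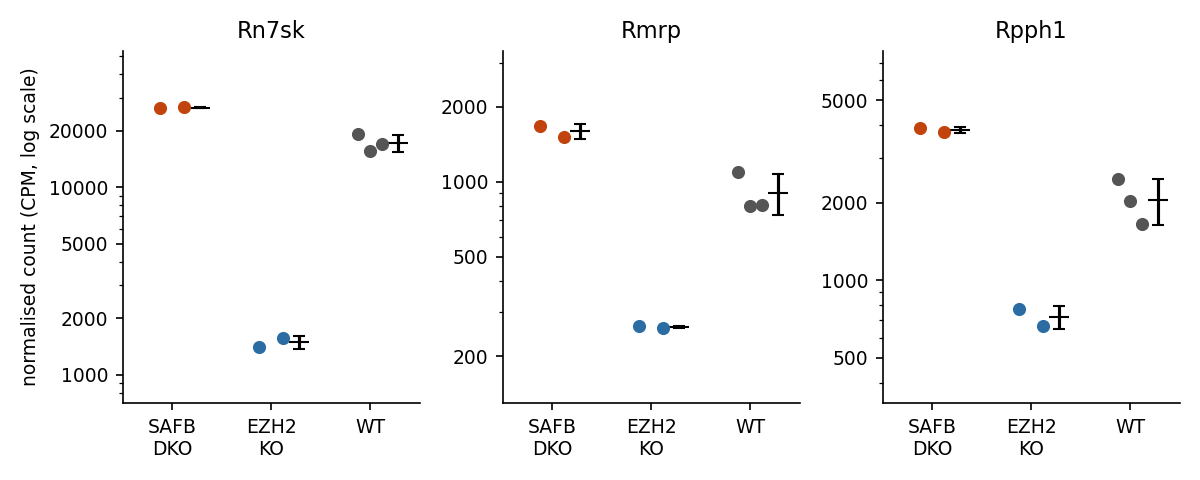
Normalised counts (CPM, log axis) of Rn7sk, Rmrp and Rpph1 in each library, with the mean and SD of each group beside the points. In each panel the 2 SAFB DKO libraries are the highest and the 2 EZH2 KO libraries the lowest; EZH2 KO is 1414 and 1572 CPM for Rn7sk, against 15574 to 19155 CPM in WT.

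Because the counted stretches differ in length, the RNAs were compared with each other per kilobase of row, with column totals as library size. On that scale the level of 7SK was 222001 and 225727 in SAFB DKO, 9595 and 8608 in EZH2 KO, and 113099 to 137331 in WT. RPPH1 had 17331 and 16776 in SAFB DKO, 2778 and 1931 in EZH2 KO, and 6311 to 9418 in WT. RMRP had 8516 and 7731 in SAFB DKO, 1084 and 859 in EZH2 KO, and 3527 to 4759 in WT. The order 7SK, RPPH1, RMRP therefore held in all 3 groups, with no overlap between neighbours in that order within a group.

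SAFB DKO, which lacks the antibody's second target, was set against WT first. All levels are relative to other counts of the same library, so how much precipitated RNA depends on either target was not measured. All 3 RNAs rose in SAFB DKO against WT. In edgeR's quasi-likelihood test with Benjamini-Hochberg adjustment over 16720 genes, the log2 fold change of RPPH1 was 0.90 (SE 0.15, adjusted p = 0.000326). For RMRP it was 0.82 (SE 0.14, adjusted p = 0.000423). For 7SK it was 0.62 (SE 0.12, adjusted p = 0.00072). Of all genes tested, 15.3% rose and 34.6% fell in this comparison, and the median log2 fold change of all genes was -0.22 (49.9% changed in either direction). Scaled to all tested genes by TMM, to column totals or by DESeq2 size factors, that median moved by 0.19, 0.22 and 0.25, and 55.0%, 53.0% and 51.2% of the calls were falls, in place of 69.3%. The 3 RNAs rose under each of these scalings. By size of the log2 fold change, RPPH1 stood at rank 849 from the top, RMRP at 1148 and 7SK at 2273.

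Of the 100 genes with the most counts in WT, a set drawn after the data were seen, 12 rose and 60 fell, with a median log2 fold change of -0.56. The 100 include 7SK, RPPH1 and RMRP themselves, at WT ranks 3, 13 and 47, so they enter these counts. No gene of the 100 had a higher fold change than RPPH1. RPPH1 was 1 of the 2 higher than RMRP, and RPPH1 and RMRP were among the 8 higher than 7SK. Malat1, a nuclear noncoding RNA, fell to 2585 ± 40.3 CPM in SAFB DKO, against 29280 ± 4093 CPM in WT, a log2 fold change of -3.50 (SE 0.23, adjusted p = 1.99e-07). Gm26917 averaged 74152 ± 1288 CPM in SAFB DKO and 43972 ± 2240 CPM in WT, a log2 fold change of 0.75 (SE 0.10, adjusted p = 5.34e-05).

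EZH2 KO, which lacks the antibody's intended target, was set against WT on the same relative scale. All 3 RNAs fell in EZH2 KO against WT, and 7SK fell much further than the others. By the same test, the log2 fold change was -3.53 for 7SK (SE 0.14, adjusted p = 2.14e-08), -1.79 for RMRP (SE 0.16, adjusted p = 8.52e-06) and -1.51 for RPPH1 (SE 0.16, adjusted p = 2.19e-05). Of all genes, 25.3% rose and 22.6% fell, and 47.9% changed in either direction, with a median log2 fold change of 0.02. With column totals and no factor, 63.4% of the calls were falls, in place of 47.1%, and the median moved by -0.25; TMM over all tested genes moved it by -0.12 and DESeq2 size factors by -0.06. The 3 falls were called under every scaling tried. From the bottom, 7SK stood at rank 351 of 16720, RMRP at 1055 and RPPH1 at 1424.

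Of the 100 genes most abundant in WT, the 3 RNAs again among them, 34 rose and 27 fell in EZH2 KO. No gene of the 100 had a lower fold change than 7SK. The 1 lower than RMRP was 7SK itself, and 7SK and RMRP were among the 3 lower than RPPH1. Those 100 were chosen on the WT libraries that are also the baseline, so their falls are not independent of the choice. Malat1 averaged 52261 ± 20829 CPM in EZH2 KO, a log2 fold change against WT of 0.84 (SE 0.19, adjusted p = 0.00305).

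The knockouts were also set against each other. In SAFB DKO against EZH2 KO, the log2 fold change was 4.15 for 7SK (SE 0.15, adjusted p = 2.87e-09), 2.60 for RMRP (SE 0.17, adjusted p = 3.35e-08) and 2.41 for RPPH1 (SE 0.18, adjusted p = 9.19e-08). Of all genes, 28.8% rose, 41.2% fell and 70% changed in either direction. With column totals and no factor, 46.6% of the calls were falls, in place of 58.9%, and the median moved by 0.47; it moved by 0.31 with TMM over all tested genes and 0.32 with DESeq2 size factors. Because the WT libraries enter both effects, this contrast tests how the effects differ. Fitted as single rows among 192964, the 3 RNAs had the same calls in each comparison. Their gene counts are those of these rows, so this is not a separate check. In SAFB DKO against EZH2 KO 16.6% of all rows rose and 23.3% fell.

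Shares of all counts scale each library by its column total alone. 7SK took 3.11% ± 0.0366 of the counts in SAFB DKO, 0.127% ± 0.00971 in EZH2 KO and 1.73% ± 0.170 in WT (SD). RPPH1 took 0.449% ± 0.0103 in SAFB DKO, 0.0619% ± 0.0158 in EZH2 KO and 0.206% ± 0.0409 in WT. RMRP took 0.187% ± 0.0128 in SAFB DKO, 0.0223% ± 0.00366 in EZH2 KO and 0.0906% ± 0.0163 in WT. Together the 3 RNAs made up 3.75% of the counts in SAFB DKO, 0.211% in EZH2 KO and 2.03% in WT.

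As ratios of mean shares, SAFB DKO was 1.80 times WT for 7SK, 2.06 times for RMRP and 2.18 times for RPPH1. In EZH2 KO the shares were lower than in WT by factors of 13.7 for 7SK, 4.05 for RMRP and 3.33 for RPPH1. Shares of the groups did not overlap for any of them. Of all genes tested, 37.8% had shares higher without overlap and 38.6% lower in SAFB DKO against WT, and 26.7% and 42.7% in EZH2 KO against WT; in SAFB DKO against EZH2 KO the figures were 44.8% and 38.2%. Each two-sided exact permutation test over the libraries gave p = 0.1, the smallest that 10 splits of 2 against 3 allow, so shares alone cannot reach the threshold. For SAFB DKO against EZH2 KO the smallest is 0.333, from 6 splits, and each test gave it. Counting error was small beside the spread between clones: the widest 95% exact Clopper-Pearson interval of a share, relative to its size, was that of RMRP in EZH2 KO clone 19, 0.0188% to 0.0207%.

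Mitochondrial RNA had the group order of the 3 RNAs. Its rows took 0.714% and 0.849% of the counts in SAFB DKO, 0.0463% and 0.0878% in EZH2 KO, and 0.291%, 0.333% and 0.469% in WT. The groups did not overlap (exact permutation p = 0.1 against WT for each knockout). Of the 11 embryonic stem cell markers, 8 rose and 2 fell in SAFB DKO against WT, and 3 rose and 6 fell in EZH2 KO against WT (all genes: 15.3% and 34.6%, and 25.3% and 22.6%). The part of either in the results on the 3 RNAs was not tested.

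The 3 RNAs did not fall in proportion in EZH2 KO. A ratio of counts within a library depends on no scaling. Counts of 7SK were 15.8 and 17.6 times those of RMRP in SAFB DKO, 5.35 and 6.05 times in EZH2 KO, and 17.4, 19.4 and 21 times in WT. The ratio was therefore several times smaller in EZH2 KO and close to WT in SAFB DKO. On the log2 scale, RMRP to 7SK was higher by 1.76 in EZH2 KO than in WT, with no overlap (exact permutation p = 0.1, the smallest possible). It was higher by 0.20 in SAFB DKO than in WT, with overlapping groups (exact permutation p = 0.3).

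Counts of 7SK were 6.77 and 7.11 times those of RPPH1 in SAFB DKO, 1.83 and 2.36 times in EZH2 KO, and 7.71, 7.68 and 10.3 times in WT. RPPH1 to 7SK was higher in EZH2 KO than in WT by 2.03 on the log2 scale (exact permutation p = 0.1). It was higher in SAFB DKO than in WT by 0.29, without overlap (exact permutation p = 0.3), and by 0.15 without WT clone 44.

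The ratio of RPPH1 to RMRP, the RNAs of the related enzymes, differed less between groups. Counts of RPPH1 were 2.33 and 2.48 times those of RMRP in SAFB DKO, 2.93 and 2.57 times in EZH2 KO, and 2.26, 2.52 and 2.04 times in WT. The log2 difference from WT was 0.08 in SAFB DKO, with overlapping groups (exact permutation p = 0.5), and between 0.0082 and 0.16 with 1 library left out. It was 0.28 in EZH2 KO, whose libraries were both above WT (exact permutation p = 0.2), and between 0.18 and 0.37 with 1 library left out. Between the knockouts, SAFB DKO minus EZH2 KO was -1.55 for RMRP to 7SK, -1.74 for RPPH1 to 7SK and -0.19 for RPPH1 to RMRP, each at the smallest p of 6 splits.

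**Figure D3:**
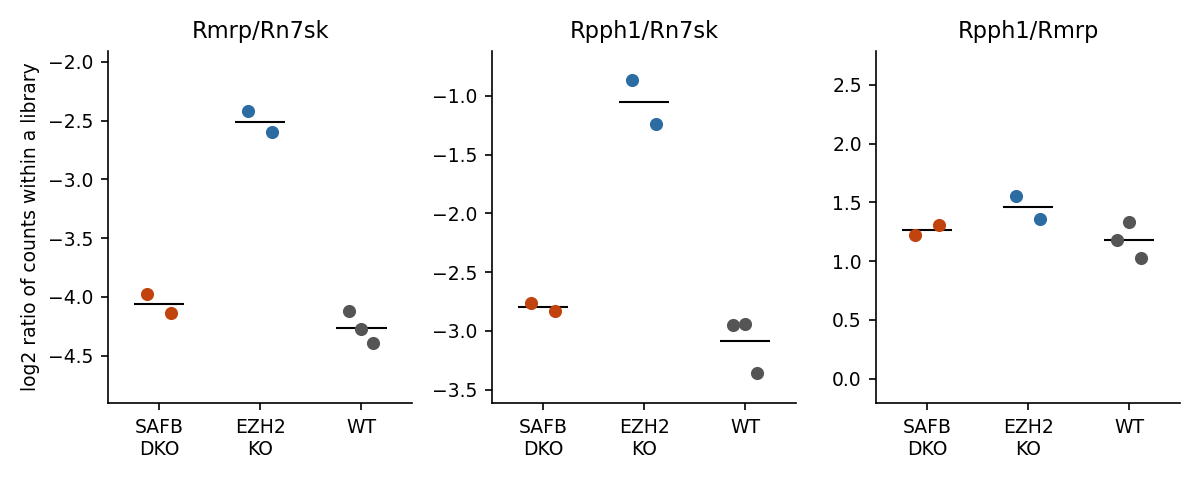
Log2 ratio of counts of RMRP to 7SK, RPPH1 to 7SK and RPPH1 to RMRP within each library; points are libraries and lines are group means, and each axis spans 3 log2 units. The ratios to 7SK are higher in EZH2 KO than in WT by 1.76 and 2.03, and the ratio of RPPH1 to RMRP by 0.28.

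Across the 7 libraries, log2 CPM of RMRP and RPPH1 correlated at Pearson r = 0.992, 7SK and RMRP at 0.975, and 7SK and RPPH1 at 0.949. These are descriptions of libraries in 3 groups that share depth and genotype. Among 12340 genes averaging 50 counts or more, the 5 most like 7SK over the 7 libraries were Atp6v0a2, Ftl1, Ifitm3, Selenos and Cnn2 (r from 0.996 to 0.997). Such a correlation takes no account of the size of a change. In SAFB DKO against WT their log2 fold changes ran from 0.12 (Atp6v0a2) to 0.51 (Ftl1), and only Ftl1 was called. In EZH2 KO against WT they ran from -0.70 (Atp6v0a2) to -2.69 (Ifitm3), where 7SK was at -3.53. Those most like RMRP were Ankrd52, Cops7b, Get4, Eif3k and Gm9385 (r from 0.995 to 0.999), and those like RPPH1 included Ptms, Gm9308, Clstn1 and Rpl41 (r from 0.996 to 0.998). Ftl1 encodes the ferritin light chain; it had 123 and 126 CPM in SAFB DKO, 15.0 and 13.5 CPM in EZH2 KO, and 104, 79.7 and 79.4 CPM in WT. Rpl41 encodes a ribosomal protein, Eif3k a subunit of a translation initiation factor, and Atp6v0a2 a subunit of the vacuolar proton pump.

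A row on the opposite strand lay over each RNA. The antisense rows were chr9:78175327-78175466 over 7SK, chr4:43492819-43493049 over RMRP and chr14:50807451-50807763 over RPPH1, all on the plus strand. Of sense plus antisense counts, the antisense row of 7SK held 1.64% and 0.453% in SAFB DKO, 0.560% and 0.646% in EZH2 KO, and 0.686%, 0.746% and 0.482% in WT. The SAFB DKO clones lay on either side of all others. For RMRP the share was 4.04% and 2.85% in SAFB DKO, 2.55% and 4.12% in EZH2 KO, and 2.78%, 2.68% and 2.39% in WT. For RPPH1 it was 3.30% and 2.11% in SAFB DKO, 2.53% and 2.19% in EZH2 KO, and 2.13%, 2.04% and 1.85% in WT. Against WT, exact permutation p for these shares was between 0.1 and 0.8.

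**Figure D4:**
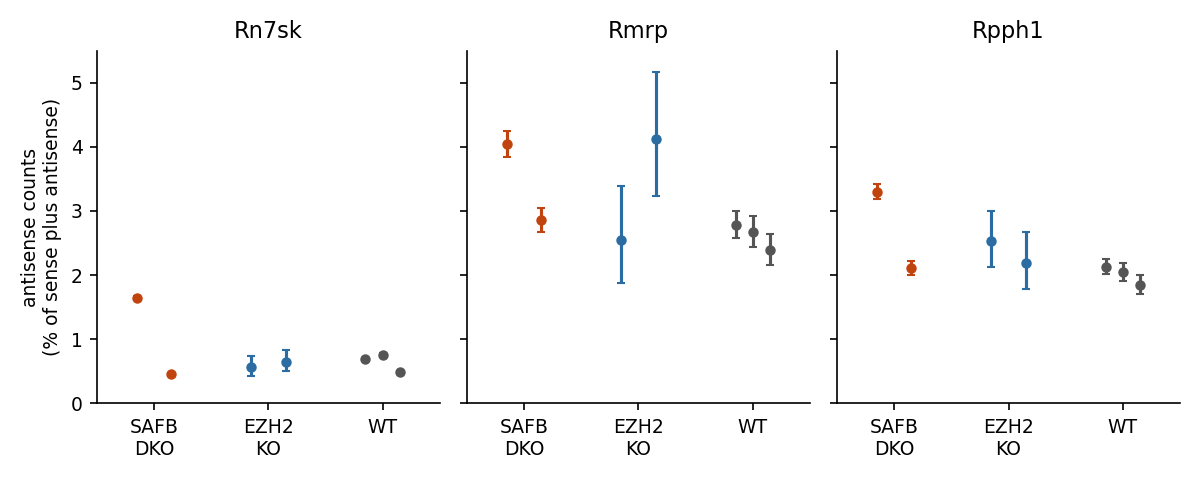
Antisense counts as a percent of sense plus antisense counts over each RNA, by library, with 95% exact Clopper-Pearson intervals. SAFB DKO clone 13 has the highest share for Rn7sk (1.64%) and Rpph1 (3.30%), while clone 4 is at 0.453% and 2.11%.

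Counts of the antisense rows mostly moved with the sense rows. In EZH2 KO against WT their log2 fold changes were -3.60 for 7SK (adjusted p = 6.25e-05), -1.44 for RMRP (adjusted p = 0.00337) and -1.28 for RPPH1 (adjusted p = 0.00422) in edgeR's quasi-likelihood test over rows. Of all rows tested, 7.5% rose and 8.07% fell. In SAFB DKO against WT the values were 1.34 for 7SK (adjusted p = 0.00808), 1.23 for RMRP (adjusted p = 0.00161) and 1.33 for RPPH1 (adjusted p = 0.000579), with 2.26% of all rows higher and 17.4% lower. The value for 7SK rested on clone 13: without it, the log2 fold change was 0.13 (adjusted p = 0.827), and without WT clone 44 it was 1.15 (adjusted p = 0.0783). For RMRP it was 0.85 (adjusted p = 0.0761) without clone 13. The sense rows of all 3 RNAs were called without any one library.

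Of the neighbouring genes, only Ccdc107, which overlaps Rmrp, was called against WT. Ccdc107, a protein-coding gene on the plus strand, begins inside Rmrp (chr4:43492900-43495921). It averaged 59.7 CPM in SAFB DKO, 13.4 in EZH2 KO and 26.8 in WT. Its log2 fold change was 1.16 in SAFB DKO (adjusted p = 0.00291) and -1.003 in EZH2 KO (adjusted p = 0.0184). The antisense row over RMRP made up 95.9% and 96.8% of its counts in SAFB DKO, 80.7% and 61.2% in EZH2 KO, and 91.0%, 91.3% and 91.7% in WT. The call in SAFB DKO was lost without clone 13 (0.76, adjusted p = 0.0754), and that in EZH2 KO without clone 12 (-0.55, adjusted p = 0.169) or the parental WT line (-0.77, adjusted p = 0.0727).

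Parp2, which encodes a poly(ADP-ribose) polymerase, starts 74 bases from Rpph1 on the other strand. Its log2 fold change was -0.18 in SAFB DKO (adjusted p = 0.291) and 0.22 in EZH2 KO (adjusted p = 0.221), but on its top row only -0.71 (adjusted p = 0.01) and 0.60 (adjusted p = 0.0221). Ccnb1ip1, apart from the row it shares with Rpph1, was at -0.12 (adjusted p = 0.669) and -0.01 (adjusted p = 0.981) in those comparisons. Arhgef39, 3079 bases from Rmrp, was at 0.71 (adjusted p = 0.286) and -0.15 (adjusted p = 0.863) with few counts, and C920006O11Rik, 281 bases from Rn7sk, had no row. Apart from the rows over the RNAs, no row within 10 kb held more than 521 counts in a library.

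Most mRNAs for the protein partners of 7SK fell in SAFB DKO, where 7SK rose. Of the 7 genes of the 7SK particle and P-TEFb, 1 rose and 5 fell in SAFB DKO against WT, where 15.3% of all genes rose and 34.6% fell. Their median log2 fold change was -0.89, against -0.22 for all genes. In EZH2 KO against WT, 3 rose and 1 fell, where 25.3% of all genes rose and 22.6% fell (median 0.21, against 0.02 for all genes). Relative to EZH2 KO, 1 rose and 6 fell in SAFB DKO, where 28.8% of all genes rose and 41.2% fell (median -1.02, against -0.34). Of these falls, that of Hexim2 was lost with TMM over all genes (-0.65), column totals (-0.49) and DESeq2 size factors (-0.64). Larp7 lost its call with column totals (-0.20). The falls of Mepce, Hexim1, Ccnt1 and Ccnt2 were called under each scaling. These values are of precipitated messenger RNA, over rows of the whole gene, and say nothing of the proteins.

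Mepce, the capping enzyme of 7SK, averaged 38.6 CPM in SAFB DKO, 152 in EZH2 KO and 79.7 in WT. Its log2 fold change was -1.05 in SAFB DKO (adjusted p = 3.46e-05) and 0.93 in EZH2 KO (adjusted p = 0.000113), the opposite of 7SK in both. Larp7, which binds the 3′ end, fell in SAFB DKO (-0.81, adjusted p = 0.000478) and was at -0.14 in EZH2 KO (adjusted p = 0.459), or -0.39 with column totals (adjusted p = 0.0156). Hexim1, the P-TEFb inhibitor, fell in SAFB DKO (-0.89, adjusted p = 0.00013) and was at 0.13 in EZH2 KO (adjusted p = 0.457). Its paralog Hexim2 rose in EZH2 KO (0.95, adjusted p = 0.0171). The call was lost without clone 12 (0.70), WT clone 20 (0.92, adjusted p = 0.0593) or WT clone 44 (0.94, adjusted p = 0.0526). It was also lost with column totals (0.73, adjusted p = 0.0669) or with same-numbered EZH2 KO and WT libraries as blocks (0.92, adjusted p = 0.0921).

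The cyclins Ccnt1 and Ccnt2 fell in SAFB DKO by log2 fold changes of -1.21 (adjusted p = 1.16e-05) and -1.19 (adjusted p = 5.62e-06). Ccnt2 rose in EZH2 KO (0.82, adjusted p = 0.000138), and Ccnt1 was at 0.21 (adjusted p = 0.21), or 0.37 without clone 12 (adjusted p = 0.0233). Cdk9, their kinase, rose in SAFB DKO and fell in EZH2 KO, as 7SK did. It averaged 46.9 CPM in SAFB DKO, 17.7 in EZH2 KO and 30.8 in WT, with log2 fold changes of 0.61 (adjusted p = 0.00452) and -0.80 (adjusted p = 0.00199). Counted on its top row only, the value in EZH2 KO was -0.49 (adjusted p = 0.0826).

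Of 21 tested genes of pause release and elongation (22 listed), 6 rose and 7 fell in SAFB DKO against WT, and 4 rose and 11 fell in EZH2 KO against WT. Over all genes 15.3% rose and 34.6% fell in SAFB DKO, and 25.3% rose and 22.6% fell in EZH2 KO. The list's median log2 fold changes were 0.04 and -0.41, against -0.22 and 0.02 for all genes. Between the knockouts, 10 were higher and 6 lower in SAFB DKO than in EZH2 KO, with a median of 0.38. Of all genes, 28.8% were higher and 41.2% lower there, with a median of -0.34. Eaf2, an ELL-associated factor, was at -3.18 in SAFB DKO (adjusted p = 1.9e-05) and 1.58 in EZH2 KO (adjusted p = 0.000776). Mllt3 and Ell2, of the super elongation complex, fell in SAFB DKO by log2 fold changes of -1.02 (adjusted p = 0.000893) and -0.89 (adjusted p = 0.000191). Ccnk, the cyclin of Cdk12 and Cdk13, fell in EZH2 KO (-1.60, adjusted p = 5.64e-05). Supt4a, a subunit of the pausing factor DSIF, fell there too (-2.45, adjusted p = 0.0132). Its call was lost without clone 12 (-1.85) or with same-numbered EZH2 KO and WT libraries as blocks (-2.35, adjusted p = 0.134). The 6 rises in SAFB DKO became 3 without clone 13, 3 without the parental WT line and 2 without WT clone 20, and the 4 in EZH2 KO became 2 without clone 19, the parental WT line or WT clone 44.

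Of 10 tested genes for the proteins of RNase P and RNase MRP (11 listed), 0 rose and 2 fell in SAFB DKO, with a median of 0.12, and 2 rose and 2 fell in EZH2 KO, with a median of 0.05. Over all genes, 49.9% and 47.9% were called in these comparisons, with medians of -0.22 and 0.02. In SAFB DKO against EZH2 KO, 28.8% of all genes rose and 41.2% fell, with a median of -0.34. Relative to EZH2 KO, 3 rose and 1 fell in SAFB DKO (median -0.23); 1 rose without SAFB DKO clone 13, and 3 fell without EZH2 KO clone 12. Rpp38, a subunit of both enzymes, was at -1.28 in SAFB DKO (adjusted p = 0.0007) and 0.91 in EZH2 KO (adjusted p = 0.00546). Pop1, the largest subunit, fell in EZH2 KO (-0.97, adjusted p = 0.000366) and was at 0.01 in SAFB DKO (adjusted p = 0.96). Rpp30 was at -0.13 in SAFB DKO (adjusted p = 0.674) and 0.21 in EZH2 KO (adjusted p = 0.509), though 0.62 without EZH2 KO clone 12 (adjusted p = 0.0243). On its top row only, Rpp30 was at -1.23 (adjusted p = 0.00456) and 1.10 (adjusted p = 0.00648). Rpp40 rose in EZH2 KO (0.82, adjusted p = 0.0167), but not without clone 12 (0.60) or the parental WT line (0.82, adjusted p = 0.0558). Its call was also lost with column totals (0.60, adjusted p = 0.0803) or with same-numbered EZH2 KO and WT libraries as blocks (0.79, adjusted p = 0.101). The fall of Pop4 in SAFB DKO (-0.56, adjusted p = 0.029) was lost without any one SAFB DKO or WT library (-0.68 to -0.49) and under the other scalings. Under the other scalings 2 to 4 genes of the list rose in SAFB DKO, and 2 rose when either EZH2 KO library was left out of the shared fit. In EZH2 KO, 1 rose without the parental WT line, and the falls became 4 without clone 19 and 1 without WT clone 20.

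RNA polymerase III, which makes all 3 RNAs, had 31 tested genes of 33 with its factors. In SAFB DKO 8 rose and 3 fell (median 0.15), and in EZH2 KO 4 rose and 11 fell (median -0.20). All genes had 15.3% higher and 34.6% lower in SAFB DKO (median -0.22), and 25.3% higher and 22.6% lower in EZH2 KO (median 0.02). SAFB DKO against EZH2 KO had 14 higher and 7 lower, with a median of 0.59, where 28.8% of all genes were higher and 41.2% lower. Brf1, a subunit of the initiation factor TFIIIB, was at -0.83 in SAFB DKO (adjusted p = 0.000397) and 1.20 in EZH2 KO (adjusted p = 3.48e-05). Bdp1, of the same factor, fell in SAFB DKO (-0.81, adjusted p = 0.000138). Polr1c, a subunit shared by polymerases I and III, rose in SAFB DKO (0.79, adjusted p = 0.00069). Maf1, a repressor of the polymerase, fell in EZH2 KO (-1.17, adjusted p = 0.00158). So did Polr3k, a small subunit of the enzyme (-1.22, adjusted p = 0.0471), but not when any library other than EZH2 KO clone 12 was left out (-1.26 to -0.54, adjusted p from 0.0568 to 0.272). The 8 rises became 1 to 4 when any one SAFB DKO or WT library was left out, and were 13 or 14 under the other scalings.

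Among other short noncoding RNAs, those called in EZH2 KO all fell, and all but Bc1 of those called in SAFB DKO rose. Of 46 listed, 12 had a row and 11 were tested, so these are few and low in most cases. In SAFB DKO against WT, 6 rose and 1 fell, with a median log2 fold change of 1.15, where 15.3% of all genes rose and 34.6% fell. In EZH2 KO against WT, 0 rose and 6 fell, where 25.3% of all genes rose and 22.6% fell, and 3 of the 6 are the RPPH1-like Rprl1, Rprl2 and Rprl3; the median was -1.82, or -1.16 with genes at 0 counts set to their bound. Relative to EZH2 KO, 9 rose and 0 fell in SAFB DKO, where 28.8% of all genes rose and 41.2% fell. The median was 3.12, or 2.36 with bounds. Without SAFB DKO clone 13, 3 rose and 0 fell in SAFB DKO, and without WT clone 44, 0 fell.

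Rnu3a, the U3 RNA of ribosomal RNA processing, had the most counts of that list and was chosen after its values were seen. It averaged 283 ± 21.4 CPM in SAFB DKO, 26.1 ± 10.5 CPM in EZH2 KO and 124 ± 13.2 CPM in WT. Its log2 fold changes were 1.19 (adjusted p = 0.000123) and -2.25 (adjusted p = 1.1e-05). Scarna2, a small Cajal body RNA named likewise, had 179 and 144 CPM in SAFB DKO, 51.7 and 65.6 CPM in EZH2 KO, and 99.0, 96.3 and 98.1 CPM in WT, with log2 fold changes of 0.72 (adjusted p = 0.000947) and -0.74 (adjusted p = 0.0016). U3 is made by RNA polymerase II, so the list is not one of polymerase III products alone.

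The RPPH1-like genes Rprl2 and Rprl3 had log2 fold changes of 1.15 (adjusted p = 0.00761) and 1.30 (adjusted p = 0.00569) in SAFB DKO. In EZH2 KO, Rprl2 was at -2.58 (adjusted p = 0.000928) and Rprl3 at -1.82 (adjusted p = 0.00788), Rprl3 not called without clone 19 (-1.43, adjusted p = 0.0574). Rprl1 had 0 and 3 counts in EZH2 KO, against 57, 40 and 24 in WT (log2 fold change -3.02, adjusted p = 0.01; -2.01, adjusted p = 0.0595 without clone 12). Reads that match both these genes and Rpph1 could have been counted on either or dropped. The rise of Rprl2 was lost without SAFB DKO clone 4 (0.80, adjusted p = 0.122) and that of Rprl3 without clone 13 (0.69, adjusted p = 0.184). Rnu12, the U12 RNA of the minor spliceosome, was at 1.37 in SAFB DKO (adjusted p = 0.0292), which rested on clone 13 (0.20 without it, adjusted p = 0.794) and was not called without any one WT library (1.14 to 1.48, adjusted p from 0.0635 to 0.12). Terc, the telomerase RNA, also chosen after its values were seen, was at 0.68 in SAFB DKO (adjusted p = 0.0246), a call lost without either SAFB DKO clone (0.70, adjusted p = 0.0821 without clone 13, and 0.62, adjusted p = 0.112 without clone 4), without the parental WT line (0.72, adjusted p = 0.059) or without WT clone 44 (0.56, adjusted p = 0.104). It was at -0.21 in EZH2 KO (adjusted p = 0.511), or -0.79 without clone 19 (adjusted p = 0.0166).

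Bc1, a polymerase III transcript known from neurons, was the 1 RNA of the list that fell in SAFB DKO. It had 10 and 11 counts in SAFB DKO, 0 and 0 in EZH2 KO, and 43, 37 and 50 in WT. The log2 fold change in SAFB DKO was -1.998 (adjusted p = 0.0121), lost without clone 13 (-1.83, adjusted p = 0.0691) or WT clone 44 (-1.83, adjusted p = 0.0588). Against a floor of 3 counts over the group, it was at least 9.07-fold lower in EZH2 KO than in WT. Snord118, the U8 small nucleolar RNA, had 36 and 12 counts in SAFB DKO, 0 and 0 in EZH2 KO, and 17, 4 and 11 in WT. It was not called in EZH2 KO against WT. Against the same floor, it was at least 2.23-fold lower than the 32 pooled WT counts. That bound takes no account of the spread between WT libraries and need not hold against each of them.

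**Figure D5:**
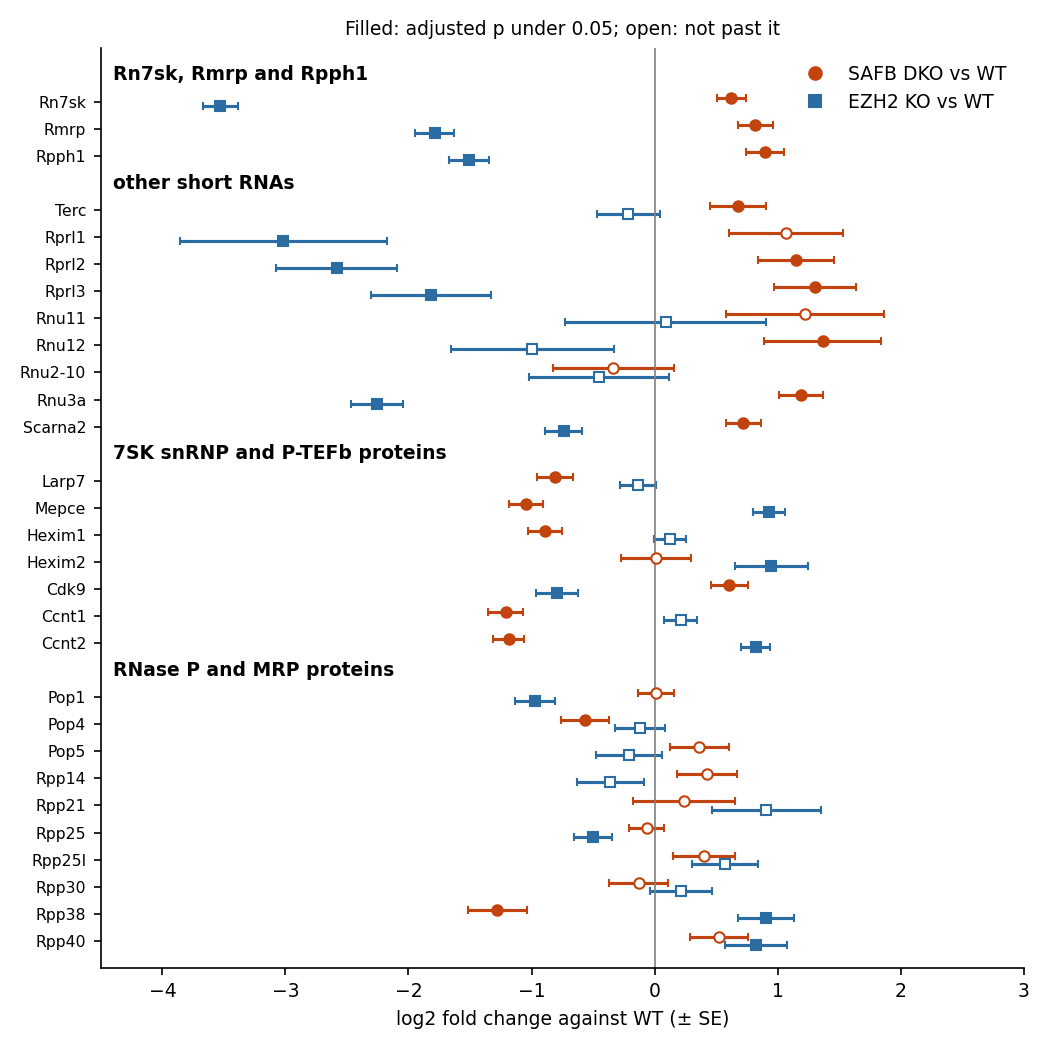
Log2 fold change against WT with its SE for SAFB DKO (circles) and EZH2 KO (squares), by gene group; filled symbols have an adjusted p under 0.05. Rn7sk, Rmrp and Rpph1 lie right of 0 in SAFB DKO (0.62 to 0.90) and left of it in EZH2 KO (-3.53 to -1.51), and Mepce lies the other way; Bc1 and Snord118, with 0 counts in EZH2 KO, are not drawn.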

How the data were processed

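The values deposited were raw counts, that is, reads per interval as whole numbers. The file headers name featureCounts 2.0.3 as the authors' counter, set to reverse strand on mm10 intervals whose names say they were called on pooled WT libraries; the aligner and peak caller are not given in the sources used here. Per the labels' protocols, libraries were depleted of ribosomal RNA and made from 9 µL precipitate plus 1 µL ERCC controls. Columns for a control antibody (3, of no sample) were not used here.

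Rows were joined to GENCODE M21 genes on their strand and summed by symbol; 72721 rows were on no gene. edgeR 4.0.16 (quasi-likelihood F-test, filterByExpr, R 4.3.3) fitted the 7 libraries by group on 16720 genes, and again on 192964 rows, with column totals scaled by TMM factors from 170869 tested rows outside the filtered peak list. Adjusted p under 0.05 counted as a call; p-values measure the spread between clones. The step was tested on simulated data. Shares and within-library ratios (0.5 added to each count) used two-sided exact permutation tests (scipy 1.17.1), with 95% exact Clopper-Pearson intervals for counting error only. Copies were found with blastn 2.17.0. DESeq2 1.42.0 was an alternative.

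Named genes were the 3 RNAs, their neighbours within 10 kb, Malat1, Gm26917, partner genes and the targeted genes; of each list, at most the 3 called genes with the largest fold change; and the 5 genes most like each RNA, of which 1 is not reported here. The RNAs, lists and rules were chosen with earlier results of these data known.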

Additional observations from a re-analysis of the deposited data

How the results depend on the processing

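All log2 fold changes of the 3 RNAs kept their direction and call, and the differences in their ratios, none of which could be called, kept their direction, in each of 348 alternative values over 36 results. These covered scaling, low-count filters, DESeq2, the groups fitted, single rows and each library left out. Each RNA has a single row, so fits on single rows, top rows or rows inside the gene used the same counts. Those values are not independent checks. Ratios of mean shares and differences in ratios were compared by direction only. In SAFB DKO against WT they ranged over 0.56 to 0.88 for 7SK, 0.73 to 1.07 for RMRP and 0.75 to 1.15 for RPPH1. In EZH2 KO against WT they ranged over -3.77 to -3.45, -2.02 to -1.62 and -1.74 to -1.35. Numbers of genes called were 8344 (6011 to 10261), 8003 (6051 to 8507) and 11706 (9553 to 12158) in SAFB DKO against WT, EZH2 KO against WT and SAFB DKO against EZH2 KO. Same-numbered EZH2 KO and WT libraries did not deviate together (r = 0.0487 and -0.00659), so the numbers do not pair them; with a replicate block the 3 RNAs were at -3.53, -1.84 and -1.64 and 6051 genes were called. Both SAFB DKO labels carry one number, so no block could be fitted there. Alternatives for the antisense rows and for other named genes were chosen after seeing the data; of the values for named genes, 2367 of 2533 values kept their call, 113 lost it, 51 gained it and 2 turned round, Ell2 in EZH2 KO against WT on its top row only (-0.40) and Parp2 in SAFB DKO against EZH2 KO with column totals (0.073). For the antisense rows 87 of 90 did.

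Of 362 alternative counts of genes called, 43 moved by over 1.5 times; the cause was not tested. With column totals, genes lower in EZH2 KO than in WT became 2 for the 7SK particle, and genes higher became 2 for pause release and 1 for RNase P and MRP. With the replicate block, those higher became 2 for pause release and 1 for RNase P and MRP, and those lower 7 and 1. For SAFB DKO against WT, RNase P and MRP genes higher were 2, 3 and 4 with TMM over all genes, column totals and DESeq2 size factors, and lower 1, 1 and 1; polymerase III genes higher were 13, 14 and 14. Polymerase III genes lower in SAFB DKO than in EZH2 KO became 3 with column totals. With each library left out in turn, SAFB DKO against WT gave 2 to 7 pause release genes higher, 0 to 2 RNase P and MRP genes higher and 1 to 2 lower, 1 to 10 polymerase III genes higher, and 3 to 8 other short RNAs higher and 0 to 1 lower. EZH2 KO against WT gave 2 to 6 pause release genes higher, and 1 to 2 RNase P and MRP genes higher and 1 to 4 lower. SAFB DKO against EZH2 KO gave 1 to 3 RNase P and MRP genes higher and 1 to 3 lower. Depth limits the low members of the short RNA list, such as Bc1 and Snord118, and not the 3 RNAs, whose lowest count was 1651.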
